A study of Mus musculus with 18 samples.

Results

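The NF-kB pathway with its feedback genes was followed as 35 named mouse genes, all of which were listed in each of the 3 tables, among 52506 genes that the tables share. They were taken by symbol and comprised 5 NF-kB subunits, 6 inhibitor proteins of the IkB family, 6 kinases, 11 adaptors and ubiquitin ligases, 5 brakes and 2 target genes. RNA came from 18 libraries of double negative T cells (DNT cells, which carry neither CD4 nor CD8) of wild type mice, obtained by converting CD4+ T cells of spleen and lymph node. Every library had received antibodies to CD3 and CD28, and each group held 3 libraries. The first table compared no ligand (WT) with 400 µM ATPgs, an ATP analogue (WTATPgs). The second set DNT libraries without ligand beside ADO libraries with 400 µM adenosine. The third had an A2a adenosine receptor inhibitor at 250 nM in all its libraries, without adenosine (R) and with 400 µM adenosine (RA). Ligand treatment lasted 6 h in each table. The inhibitor is not named. The labels do not say if libraries of 1 group are separate cultures, animals or repeat preparations, so the p-values speak only of the spread between libraries.

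NF-kB transcription factors are dimers that IkB proteins hold in the cytoplasm of a resting cell. Engagement of the T cell receptor with CD28, or of receptors of the TNF family, activates the IKK kinases through adaptors and ubiquitin chains, IkB is destroyed and the dimers enter the nucleus. Among the genes they switch on are many of the pathway's own inhibitors and brakes, so the RNA of these genes reports both the machinery and its feedback. In T cells the pathway is known for cytokine production, survival and proliferation after activation.

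Library totals ran from 20156082 to 24331577 counts. The 10 T cell markers summed to 2906 to 4106 CPM (depth-normalised counts, scaled with TMM factors within each table), whereas Cd4, Cd8a and Cd8b1 together gave 6.39 to 26.7 CPM. WTATPgs replicate 3 stood apart from replicates 1 and 2, and the R libraries differed among themselves, with mitochondrially encoded RNA at 3.66, 3.14 and 5.47% of counts and ribosomal protein RNA at 13.1, 10.7 and 16.3% in replicates 1 to 3. The common biological coefficient of variation was 10.6%, 2.74% and 19.6% in the 3 tables, highest in the third. All 35 genes passed the filter on low counts in every comparison, and the lowest count of any of them in any library was 128 (Tnip3). Ikbkg, Nfkb2, Nfkbib and Ripk1 overlap exons of G6pdx, Psd, Sirt2 and Serpinb6a on the opposite strand. Since strand-specific counting is not stated, counts of these 4 genes are uncertain.

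The members were ranked by their level per kilobase of merged exon (RPKM). In the untreated DNT libraries Sqstm1, which encodes a ubiquitin-binding scaffold, was highest at 155 ± 2.05 RPKM (SD, n = 3). Nfkb2 (104 ± 1.57), Nfkb1 (99.8 ± 0.693) and Nfkbia (97.9 ± 1.82 RPKM), which encodes the prototype IkB, came next. Nfkb2 lay above the other two in every library, whereas the values of Nfkb1 and Nfkbia overlapped. Nfkbid, which encodes a nuclear IkB, followed at 72.8 ± 3.44 RPKM. Rela stood at 69.0 ± 0.681, Rel at 53.2 ± 1.56 and Relb at 31.5 ± 1.16 RPKM. The core IKK genes were lower on this scale, with Chuk at 25.1 ± 0.914, Ikbkb at 6.95 ± 0.210 and Ikbkg at 6.69 ± 0.241 RPKM. Merged exon length bears on this ranking, with 5087 bases for Chuk, 19078 for Ikbkb and 8110 for Ikbkg. Before division by length these genes held 128, 133 and 54.3 CPM. Tnip3 was lowest at 0.667 ± 0.0189 RPKM. In the WT libraries, which carry the same labelled treatment, the 4 highest were again Sqstm1 (191 ± 1.71), Nfkbia (128 ± 1.83), Nfkb1 (110.0 ± 0.0334) and Nfkb2 (109 ± 1.81 RPKM). The 35 genes together held 7804, 7825 and 7851 CPM in WT, 6768, 6737 and 6807 in DNT and 4332, 4924 and 3529 in R. Nfkb1, Rel and Nfkbiz showed wide gaps to the third table, with 1204, 397 and 156 CPM in DNT and 469, 98.7 and 29.7 CPM in R. Inhibitor and table go together here, so they cannot be told apart, and levels are scaled within each table.

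Promoter windows (RefSeq, GRCm38.p6, 250 bases before to 50 after the gene start) were at hand for 29 of the 35 genes. They were searched on both strands for the kappa B consensus, the letters that NF-kB dimers recognise, and for TGACGTCA, the full cyclic AMP response element, since adenosine receptors can act through cyclic AMP. At least 1 kappa B match lay in a window of 13 of these 29 genes (44.8%), against 9.55% of all 27025 genes with a window. These were Bcl3, Cyld, Nfkb2, Nfkbia, Nfkbid, Nfkbie, Rel, Sqstm1, Tank, Tnfaip3, Tnip1, Tnip3 and Traf3. The full cyclic AMP element lay in windows of Birc2 and Nfkbid only, that is 6.90% of the 29 against 2.03% of all genes. Shown here are the windows of the 4 genes with the largest adenosine effect among those that passed with both ATPgs and adenosine, of which 2 fell (Cflar and Rel) and 2 rose (Traf1 and Tnfaip3). They lie at chr1:58711241-58711540 on the plus strand for Cflar, and on the minus strand at chr11:23770920-23771219 for Rel, chr2:34961723-34962022 for Traf1 and chr10:19015361-19015660 for Tnfaip3. Capitals mark kappa B matches, and each reads 5′ to 3′ along its gene.
Cflar: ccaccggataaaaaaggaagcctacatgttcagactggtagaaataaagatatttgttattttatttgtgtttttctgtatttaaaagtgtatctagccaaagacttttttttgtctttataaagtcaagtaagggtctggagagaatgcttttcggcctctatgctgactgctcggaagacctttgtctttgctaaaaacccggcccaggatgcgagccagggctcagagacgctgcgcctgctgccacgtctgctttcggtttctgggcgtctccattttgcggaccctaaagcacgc
Rel: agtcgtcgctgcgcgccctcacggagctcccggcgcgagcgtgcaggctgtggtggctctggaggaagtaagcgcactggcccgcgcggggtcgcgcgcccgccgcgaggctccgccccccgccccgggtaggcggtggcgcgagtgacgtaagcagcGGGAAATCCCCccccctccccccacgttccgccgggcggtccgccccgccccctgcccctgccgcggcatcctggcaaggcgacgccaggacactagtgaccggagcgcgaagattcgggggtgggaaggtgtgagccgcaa
Traf1: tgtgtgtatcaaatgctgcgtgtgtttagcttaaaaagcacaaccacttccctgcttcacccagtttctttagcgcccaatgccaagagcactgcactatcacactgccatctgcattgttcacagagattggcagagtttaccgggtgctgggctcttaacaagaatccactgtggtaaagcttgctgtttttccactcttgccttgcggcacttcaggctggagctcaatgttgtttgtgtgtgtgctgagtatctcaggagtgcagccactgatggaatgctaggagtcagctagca
Tnfaip3: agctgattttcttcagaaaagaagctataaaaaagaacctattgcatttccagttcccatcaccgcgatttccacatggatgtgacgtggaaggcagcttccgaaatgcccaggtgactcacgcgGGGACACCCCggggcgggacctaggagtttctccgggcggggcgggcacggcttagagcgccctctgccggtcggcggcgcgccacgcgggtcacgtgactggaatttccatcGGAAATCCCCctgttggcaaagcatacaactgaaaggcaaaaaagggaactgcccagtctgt
Rel, which fell, held overlapping matches at bases 159 to 169 of its window. Tnfaip3, which rose, held matches at bases 126 to 135 and 239 to 248 of the window shown. Its other listed window, chr10:19011914-19012213, held no match and is not shown. The windows of Cflar and Traf1 held neither set of letters. A match is a description of the letters and not a measured binding site, and direction did not go with its presence among these 4 genes.

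The first question was how the pathway's genes respond to ATPgs. Of the 35 genes 14 rose and 8 fell past an adjusted p of 0.05 (edgeR), where 17.7% and 19.4% of all 15124 tested genes rose and fell and 37.1% passed in either direction. All 3 treated libraries lay above all 3 controls for 16 members and below them for 11, where 24.5% and 26.8% of all tested genes were so placed. Scaled to library size only, 15 of the 35 rose and 7 fell, with Nfkbia gained and Rela lost, while over all genes 3226 rose and 2331 fell in place of 2678 and 2934. Of the 11 adaptors 8 rose and 0 fell, and of the 5 brakes 3 rose and 1 fell. Of the 5 subunits 1 rose and 3 fell, of the 6 IkB genes 1 rose and 2 fell, of the 6 kinases 0 rose and 1 fell, and of the 2 targets 1 rose and 1 fell. The median log2 fold change was 0.067 over the 35 genes and −0.00062 over all genes tested. In bulk RNA, fewer cells of a kind and less RNA per cell cannot be told apart.

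**Figure D1:**
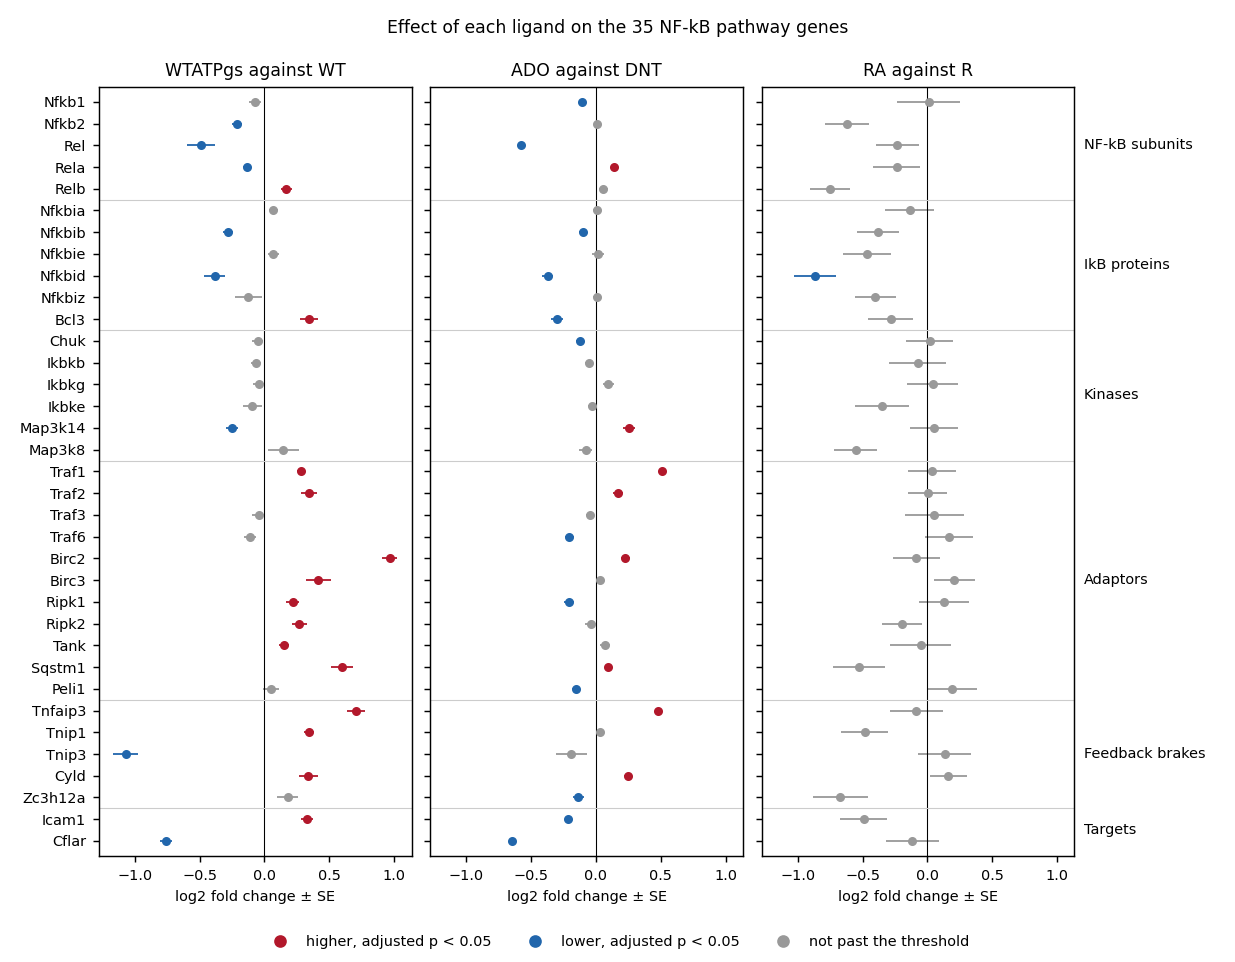
Effect of each ligand on the 35 genes, grouped by role. Points are log2 fold changes against the libraries without ligand of the same table, bars are standard errors (3 libraries per group), and colour marks genes past an adjusted p of 0.05. With ATPgs 14 genes were higher and 8 lower, with adenosine 8 and 12, and with adenosine under inhibitor 0 and 1, where the bars are widest.

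Birc2, which encodes a ubiquitin ligase of the TNF receptor complex (ENSMUSG00000057367, chromosome 9, 7818227 to 7837064, GRCm38), showed the largest rise with ATPgs. Its libraries held 71.9, 70.2 and 68.4 CPM in WT and 134, 129 and 149 CPM in WTATPgs, a rise of 0.97 ± 0.058 in log2 units (adjusted p = 9.61e-06). Each ± beside a fold change is a standard error from groups of n = 3. All 3 treated libraries lay far above all 3 controls. Its neighbour and close relative Birc3 rose less, by 0.41 ± 0.10, with 180.0, 183 and 142 CPM in WTATPgs against 131, 121 and 127 CPM in WT. The scaffold gene Sqstm1 (ENSMUSG00000015837, chromosome 11, 50199366 to 50210827) held 641, 634 and 645 CPM in WT and 1036, 1042 and 832 CPM in WTATPgs, a rise of 0.60 ± 0.086 (adjusted p = 0.002). Replicate 3 was the lowest of the treated libraries for Birc3 and Sqstm1 and the highest for Birc2. Traf1 (0.28 ± 0.029) and Traf2 (0.34 ± 0.058), adaptors of TNF family receptors, rose, as did the kinase genes Ripk1 (0.22 ± 0.052) and Ripk2 (0.27 ± 0.058) and the adaptor gene Tank (0.15 ± 0.041). Traf3 (−0.045 ± 0.050), Traf6 (−0.11 ± 0.047) and the ubiquitin ligase gene Peli1 (0.051 ± 0.063) did not pass.

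Among the brakes, Tnfaip3 (ENSMUSG00000019850, chromosome 10, 19000910 to 19015657), whose product edits ubiquitin chains to switch the pathway off, went from 447, 467 and 457 CPM in WT to 786, 793 and 658 CPM in WTATPgs, a rise of 0.71 ± 0.070 (adjusted p = 0.000259). The deubiquitinase gene Cyld rose by 0.34 ± 0.074 and Tnip1, which encodes a partner of the Tnfaip3 protein, by 0.34 ± 0.038. The related partner gene Tnip3 (ENSMUSG00000044162, chromosome 6, 65525313 to 65634040) moved the other way and was the largest change of all 35 genes. It held 25.5, 27.0 and 27.3 CPM in WT and 13.2, 13.9 and 10.9 CPM in WTATPgs, a fall of 1.07 ± 0.10 (adjusted p = 8.12e-05), with no overlap between the groups. Zc3h12a, which encodes an RNase that destroys cytokine messages, had 0.18 ± 0.080 and did not pass.

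Of the subunit genes Rel fell most with ATPgs, by 0.49 ± 0.11 (adjusted p = 0.0147), from 468, 476 and 477 CPM to 371, 362 and 279 CPM. Nfkb2 (−0.21 ± 0.037) and Rela (−0.13 ± 0.032) also fell, Relb rose by 0.17 ± 0.042, and Nfkb1 (−0.072 ± 0.047) did not pass. The nuclear IkB genes parted. Nfkbid fell by 0.38 ± 0.081, while Bcl3 rose by 0.34 ± 0.071 and Nfkbiz (−0.12 ± 0.10) did not pass. The cytoplasmic IkB gene Nfkbib fell by 0.28 ± 0.036, and Nfkbia (0.067 ± 0.034) and Nfkbie (0.068 ± 0.044) did not pass. Of the kinases only Map3k14, whose product drives the alternative pathway, passed, with a fall of 0.25 ± 0.049, and the other 5 ran from −0.094 ± 0.072 (Ikbke) to 0.15 ± 0.12 (Map3k8).

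Both target genes passed with ATPgs, in opposite directions. Cflar (ENSMUSG00000026031, chromosome 1, 58711508 to 58758884), which encodes a blocker of caspase activation at death receptors, fell by 0.76 ± 0.046 (adjusted p = 9.94e-06), from 527, 522 and 528 CPM in WT to 324, 319 and 289.6 CPM in WTATPgs. The adhesion gene Icam1 rose by 0.33 ± 0.045, from 179, 172 and 180.3 CPM to 232, 225 and 210.4 CPM. The 16 macrophage, monocyte and neutrophil markers, of which 15 were tested, 6 rose and 0 fell, summed to 73.6, 68.9 and 69.5 CPM in WT and 273, 276 and 69.2 CPM in WTATPgs. Cd14 had a mean of 0.967 CPM in WT and 18.6 CPM in WTATPgs, S100a8 6.38 and 23.0, and S100a9 14.8 and 49.3 CPM, and no marker of the list had a mean of 0 in either group. The 8 B cell markers summed to 14.8, 16.1 and 16.6 CPM in WT and 26.5, 27.0 and 33.6 CPM in WTATPgs, and 1 of them rose. In WTATPgs replicate 3 the first of these sums was at the WT level and the B cell sum was the highest. In that library 14 of the 14 members that rose lay above every WT library and 8 of the 8 that fell lay below. These calls were made with that library included, so this placement follows in part from the selection. Map3k8 (121, 124 and 90.9 CPM in WTATPgs, 102, 102 and 101 in WT) and Zc3h12a (64.2, 62.2 and 51.4 and 53.2, 51.6 and 52.2 CPM), which did not pass, were higher in replicates 1 and 2 only. The part of such cells in the ATPgs values was not tested.

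WTATPgs replicate 3 also bore on the tests. Without it 17 of the 35 genes rose and 9 fell, where 26.9% and 26.9% of all genes tested without it did, with Map3k8 (0.27 ± 0.034), Zc3h12a (0.27 ± 0.043) and Nfkbia (0.063 ± 0.028) added to the rises and Traf6 (−0.075 ± 0.032) to the falls. The calls of Rela (without WT replicate 3 or WTATPgs replicate 1 or 2, adjusted p = 0.0594 to 0.091), Relb (WT replicate 1 or 3, 0.0643 to 0.073), Ripk1 (WT replicate 1 or 2, 0.0539 to 0.0687), Birc3 (WT replicate 2 or 3, 0.0518 to 0.0573) and Tank (any WT library or WTATPgs replicate 1, 0.0527 to 0.0956) ended when a single library was left out.

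**Figure D2:**
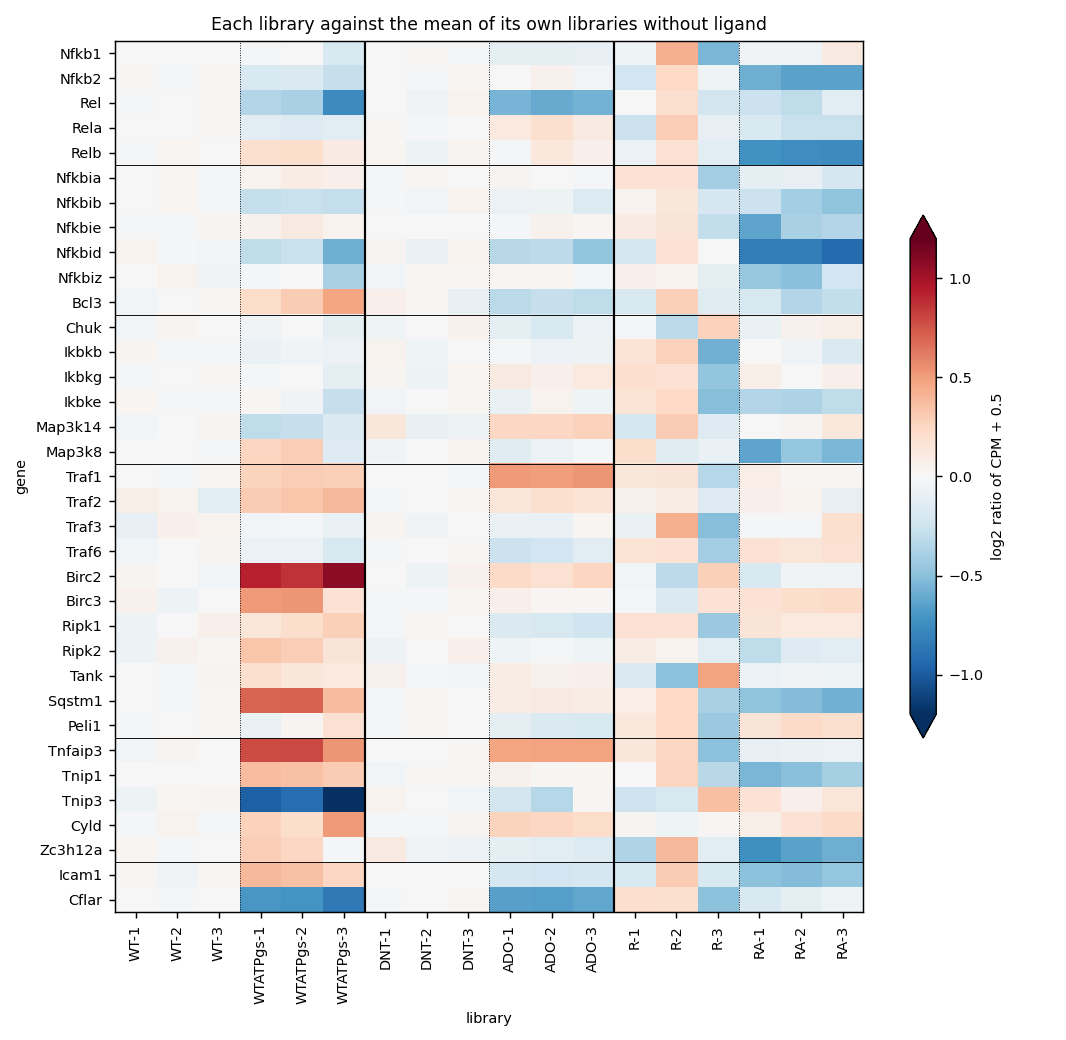
Each of the 35 genes (rows, by role) in each of the 18 libraries (columns), as the log2 ratio of CPM + 0.5 to the mean of the libraries without ligand of the same table. Thick lines part the tables and dotted lines the groups. The ATPgs and adenosine libraries are uniform within their groups apart from WTATPgs replicate 3, whereas R replicates 2 and 3 deviate in opposite directions for many genes.

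Adenosine alone was examined in the second table. Of the 35 genes 8 rose and 12 fell, where 25.5% and 24.6% of all 14512 tested genes rose and fell and 50.2% passed in either direction. The groups did not overlap for 9 members with adenosine higher and 12 with adenosine lower, where 28.2% and 27.5% of all tested genes were so placed. Scaled to library size only, 14 of the 35 rose and 10 fell, and over all genes 4418 rose and 2850 fell in place of 3707 and 3574. Among the members Nfkb2, Relb, Ikbkg, Birc3, Tank and Tnip1 joined the rises, and Nfkbib and Zc3h12a left the falls. The median log2 fold change was −0.027 over the 35 genes and 0.0022 over all genes tested, and the median size of the change, whatever its sign, was 0.12 and 0.21. Of the 16 macrophage, monocyte and neutrophil markers 7 were tested, of which 4 rose and 1 fell, and the whole list summed to 17.5, 19.0 and 19.9 CPM in DNT and 25.3, 29.8 and 29.9 CPM in ADO. Cd14 had a mean of 0.389 CPM in DNT and 2.37 in ADO, Cd68 8.31 and 13.5, Fcgr3 1.93 and 3.68, Lyz2 0.323 and 0.999, and S100a9 0.0298 and 0.0589 CPM. Lower means in ADO than in DNT were those of Mpo (1.21 and 1.04 CPM in DNT and ADO), Fcgr1 (0.711 and 0.308) and Cebpa (0.384 and 0.162). So were those of Adgre1 (0.355 and 0.324), Itgam (0.310 and 0.235), Cybb (0.253 and 0.249) and Csf1r (0.239 and 0.118). The other markers of the list had higher means in ADO. The part of such cells in these values was not tested.

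The largest change was in Cflar, which held 358, 364 and 367 CPM in DNT and 232, 229 and 236 CPM in ADO, a fall of 0.65 ± 0.023 (adjusted p = 4.93e-29). Rel (ENSMUSG00000020275, chromosome 11, 23736847 to 23770970) fell by 0.58 ± 0.023 (adjusted p = 8.41e-27), from 397, 386 and 409 CPM to 269.9, 261 and 268 CPM. Neither gene had any overlap between the groups. The other subunits moved less. Nfkb1 fell by 0.11 ± 0.016, Rela rose by 0.14 ± 0.025, and Nfkb2 (0.0068 ± 0.021) and Relb (0.057 ± 0.033) did not pass. The second target, Icam1, fell by 0.21 ± 0.025, with 213, 212 and 211 CPM in DNT and 184, 180.4 and 184 CPM in ADO.

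Of the IkB genes 0 rose and 3 fell with adenosine. Nfkbid (ENSMUSG00000036931, chromosome 7, 30421732 to 30428746), whose product is a nuclear IkB that modulates NF-kB-dependent cytokine genes, held 175, 161 and 176 CPM in DNT and 136, 137 and 123 CPM in ADO, a fall of 0.37 ± 0.041 (adjusted p = 8.15e-07). Bcl3 fell by 0.30 ± 0.045 and Nfkbib by 0.10 ± 0.031. Nfkbia (0.0059 ± 0.028), Nfkbiz (0.0065 ± 0.028) and Nfkbie (0.017 ± 0.047) stayed close to 0 with small errors. Of the kinases, Map3k14 rose by 0.26 ± 0.045 and Chuk fell by 0.12 ± 0.033, and Ikbkb (−0.051 ± 0.030), Ikbkg (0.10 ± 0.043), Ikbke (−0.027 ± 0.032) and Map3k8 (−0.079 ± 0.050) did not pass.

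Traf1 (ENSMUSG00000026875, chromosome 2, 34941750 to 34961772) showed the largest rise with adenosine. It held 537, 539 and 532 CPM in DNT and 763, 758 and 772 CPM in ADO, a rise of 0.51 ± 0.019 (adjusted p = 1.33e-28). Tnfaip3 rose by 0.48 ± 0.021 (adjusted p = 1.37e-25), from 343, 343 and 349 CPM to 479, 484 and 481 CPM. The treated libraries of both genes lay above every control. Birc2 (0.23 ± 0.036), Cyld (0.25 ± 0.034), Traf2 (0.17 ± 0.040) and Sqstm1 (0.10 ± 0.019) rose less. Traf6 (−0.21 ± 0.035), Ripk1 (−0.21 ± 0.039), the latter a kinase gene of TNF receptor signalling, Peli1 (−0.16 ± 0.031) and Zc3h12a (−0.14 ± 0.044) fell. Tnip1 (0.028 ± 0.032), Tnip3 (−0.19 ± 0.12), Birc3 (0.032 ± 0.031), Ripk2 (−0.040 ± 0.044), Tank (0.067 ± 0.038) and Traf3 (−0.045 ± 0.032) did not pass. The falls of Zc3h12a and Nfkbib ended with 1 library left out (DNT replicate 1 for Zc3h12a, adjusted p = 0.175, and DNT or ADO replicate 3 for Nfkbib, 0.0645 to 0.105). Without ADO replicate 1 Relb passed (adjusted p = 0.0237), and without ADO replicate 2 Ikbkg did (0.0484).

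**Figure D3:**
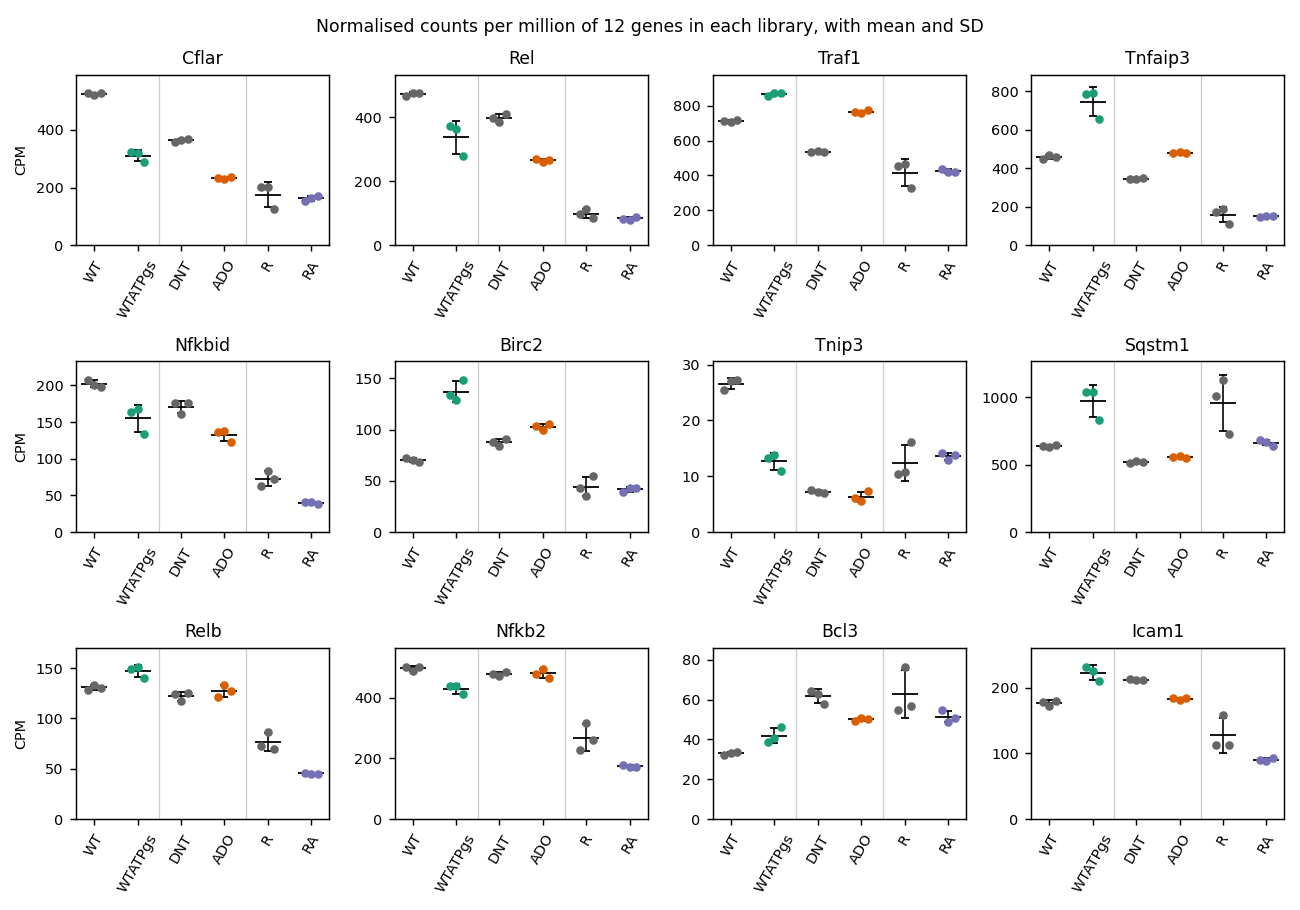
CPM of 12 genes in each library (points), with the group mean and SD (bars), each panel starting at 0. Vertical lines part the 3 tables, whose values are scaled separately. Cflar and Rel are lower with ATPgs and with adenosine, Traf1 and Tnfaip3 higher with both, Bcl3 and Icam1 higher with ATPgs and lower with adenosine, and Nfkbid, Relb and Nfkb2 lie lower in all 3 RA libraries than in any R library.

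The ATPgs and adenosine comparisons use separate control libraries, so their calls can be set side by side. Of the 15 members called in both, 6 rose in both (Traf1, Traf2, Birc2, Sqstm1, Tnfaip3 and Cyld), 4 fell in both (Rel, Nfkbib, Nfkbid and Cflar) and 5 moved in opposite directions, that is 33.3% against 7.41% of the 3804 genes called in both over the whole tables. Of all 14053 genes tested in both, 1615 rose in both and 1907 fell in both. Bcl3, Ripk1 and Icam1 rose with ATPgs and fell with adenosine. Ripk1 went from 65.5, 68.6 and 71.1 CPM in WT to 75.9, 79.0 and 83.6 in WTATPgs, and from 73.9, 76.2 and 75.2 CPM in DNT to 66.5, 65.5 and 63.4 with adenosine. Rela and Map3k14 fell with ATPgs and rose with adenosine. Rela held 275, 275 and 279 CPM in WT and 253, 249 and 254 in WTATPgs, and went from 214, 209.7 and 213 CPM in DNT to 230.3, 242 and 229 with adenosine. Map3k14 held 66.7, 68.2 and 69.7 CPM in WT and 55.1, 56.4 and 60.4 in WTATPgs, and went from 71.2, 60.6 and 62.0 CPM in DNT to 76.8, 76.7 and 78.4 with adenosine. In all 5 genes the groups were apart within both tables. The share of 33.3% rests on 15 genes, and the ATPgs calls of Rela and Ripk1 ended when certain single libraries were left out. A further 8 of the 35 members passed in neither comparison: Nfkbia, Nfkbie, Nfkbiz, Ikbkb, Ikbkg, Ikbke, Map3k8 and Traf3. Among the 14053 genes tested in both, 5219 passed in neither.

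The difference between the 2 ligand effects was tested directly, as the ATPgs effect minus the adenosine effect in a fit of 12 libraries. The ATPgs effect was the more positive for 10 members and the more negative for 6, where 8.13% and 9.12% of all 15788 tested genes were so called and 17.3% passed in either direction. The largest differences were in Tnip3 (−0.88 ± 0.15, adjusted p = 0.000714), Birc2 (0.75 ± 0.076, adjusted p = 5.60e-06), Bcl3 (0.65 ± 0.091, adjusted p = 0.000138) and Icam1 (0.55 ± 0.048, adjusted p = 1.19e-06). Bcl3 held 32.3, 33.2 and 33.6 CPM in WT and 38.6, 40.9 and 46.1 CPM in WTATPgs, but 64.5, 63.0 and 58.0 CPM in DNT and 49.4, 51.0 and 50.1 CPM in ADO, with no overlap within either table. All 5 genes that moved in opposite directions passed this test. Sqstm1 (0.51 ± 0.084), Ripk1 (0.43 ± 0.067), Birc3 (0.39 ± 0.10), Tnip1 (0.32 ± 0.047), Zc3h12a (0.32 ± 0.091), Ripk2 (0.31 ± 0.070) and Tnfaip3 (0.23 ± 0.067) completed the positive side. Map3k14 (−0.50 ± 0.081), Rela (−0.27 ± 0.044), Traf1 (−0.23 ± 0.036), Nfkb2 (−0.21 ± 0.044) and Nfkbib (−0.18 ± 0.052) completed the negative side. For Cflar (−0.11 ± 0.047), Rel (0.094 ± 0.11) and Nfkbid (−0.0064 ± 0.10) the difference did not pass. WT and DNT libraries carry the same labels but differ in level for some of these genes, such as Tnip3 (26.6 and 7.28 CPM), so ligand and table cannot be told apart in this difference. The calls of Nfkbib, Tnfaip3 and Zc3h12a were lost without any 1 of 7, 10 and 7 of the 12 libraries (adjusted p = 0.0521 to 0.0714, 0.0566 to 0.0763 and 0.0506 to 0.0825). That of Tnfaip3 also ended with limma-voom and with library size only. Without WTATPgs replicate 3 the counts were 16 and 6, where 14.2% and 18.8% of all genes were so called, with Rel at 0.20 ± 0.033.

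**Figure D4:**
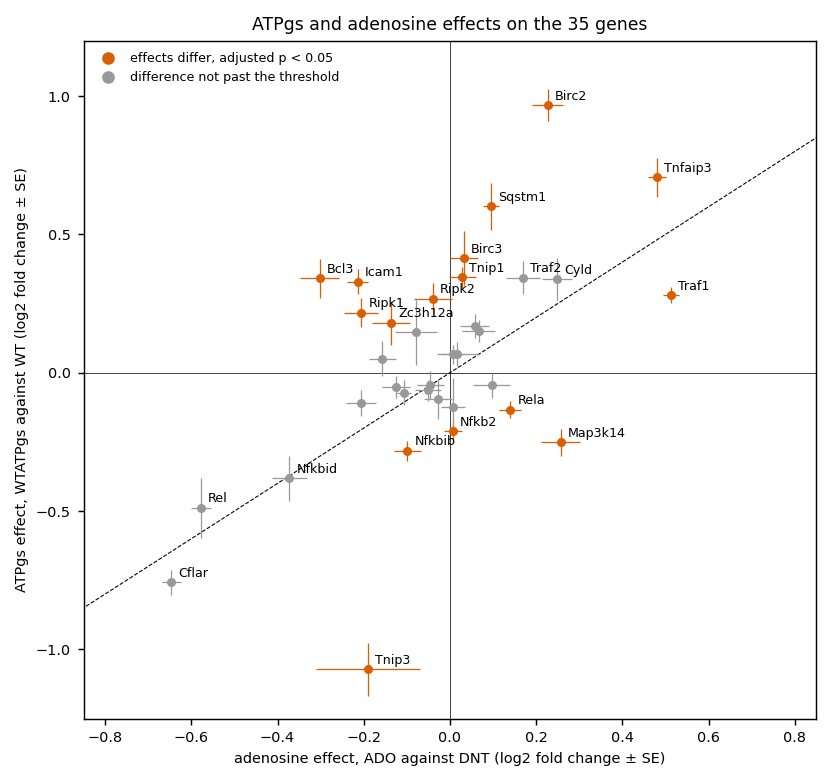
ATPgs effect (vertical) against adenosine effect (horizontal) for the 35 genes, as log2 fold changes with standard errors from separate sets of 6 libraries. The dashed line marks equal effects, and orange marks genes whose effects differed past an adjusted p of 0.05. Cflar, Rel and Nfkbid lie near the line, Birc2 and Tnip3 far from it, and Bcl3, Icam1, Ripk1, Rela and Map3k14 in the quadrants of opposite sign.

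The third table held the adenosine comparison with the A2a receptor inhibitor present throughout. Here 0 of the 35 genes rose and 1 fell, where 0.287% and 0.855% of all 12873 tested genes rose and fell and 1.14% passed in either direction. At an unadjusted p under 0.05 there were 11 members, and DESeq2 called 0 higher and 3 lower, where 12.4% of all genes were under that p and DESeq2 called 1.41% and 2.73% of them higher and lower. The gene that fell was Nfkbid, with 63.2, 83.0 and 73.0 CPM in R and 40.9, 40.9 and 38.4 CPM in RA, a fall of 0.87 ± 0.16 (adjusted p = 0.0342). It no longer passed without R replicate 1 or any RA library (adjusted p = 0.0855 to 0.273). All 3 RA libraries lay below all 3 R libraries for 12 members and above them for 1 (Cyld), where 10.7% and 10.1% of all tested genes were so placed. The 12 were Nfkb2, Relb, Nfkbib, Nfkbie, Nfkbid, Nfkbiz, Bcl3, Map3k8, Sqstm1, Tnip1, Zc3h12a and Icam1. Relb, the subunit of the alternative pathway, held 72.4, 86.3 and 69.7 CPM in R and 46.0, 45.3 and 44.8 CPM in RA (−0.75 ± 0.15, adjusted p = 0.0559). Its partner Nfkb2 held 229, 318 and 259.5 CPM in R and 179.6, 173 and 173 CPM in RA (−0.62 ± 0.17, adjusted p = 0.145). The RA libraries of both genes were close to each other and the R libraries were spread. By role, the median log2 fold change was −0.39 for the IkB genes and −0.24 for the subunits, −0.30 for the targets, −0.084 for the brakes, 0.036 for the adaptors and −0.027 for the kinases, against −0.036 over all genes tested. Of the other members below in every library, Sqstm1 held 1013, 1130 and 729 CPM in R and 684, 666 and 642 in RA (−0.53 ± 0.20), Zc3h12a 22.4, 38.0 and 26.2 and 17.1, 18.3 and 19.0 CPM (−0.67 ± 0.21), Map3k8, which encodes a kinase activated by IKK, 40.4, 31.5 and 33.0 and 22.4, 25.2 and 23.8 CPM (−0.55 ± 0.17), and Icam1 112, 158 and 112 and 90.6, 88.8 and 92.4 CPM (−0.49 ± 0.18). None of these 4 passed. The macrophage, monocyte and neutrophil markers, of which 6 of 16 were tested, 0 rose and 2 fell, summed to 115, 94.6 and 115 CPM in R and 47.4, 49.9 and 47.1 CPM in RA, with means of 74.9 in R and 24.2 CPM in RA for Tyrobp, 17.8 and 5.81 for Fcgr3, 9.74 and 12.6 for Cd68 and 2.13 and 2.32 for Cd14. S100a8 and S100a9 were at 0 in all R libraries. The part of this list in the result was not tested.

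Of the 5 largest adenosine changes seen without inhibitor, the fall of Nfkbid was also called here. The other 4, in Cflar, Rel, Traf1 and Tnfaip3, were not detected at this spread. Cflar held 202, 201 and 124 CPM in R and 155, 162 and 169 CPM in RA (−0.12 ± 0.21), Rel 98.8, 113 and 84.8 and 82.4, 80.1 and 89.6 CPM (−0.23 ± 0.16), Traf1 456, 463 and 327 and 438, 419.5 and 419.6 CPM (0.036 ± 0.19), and Tnfaip3 176, 189 and 113 and 149, 150.5 and 152 CPM (−0.084 ± 0.20). For Cflar, Traf1 and Tnfaip3 the R libraries spanned the RA values, for Rel the groups overlapped, and R replicate 3 was the lowest R library in all 4. Without R replicate 3, the library with the largest mitochondrial and ribosomal shares, 12 members fell and 0 rose, where 7.54% and 5.50% of all genes tested without it did. These were Nfkbid (−0.87 ± 0.13), Relb (−0.81 ± 0.12), Zc3h12a (−0.74 ± 0.19), Sqstm1 (−0.69 ± 0.12), Nfkb2 (−0.65 ± 0.14), Tnip1 (−0.63 ± 0.12), Nfkbie (−0.60 ± 0.14), Map3k8 (−0.59 ± 0.14), Icam1 (−0.58 ± 0.14), Ikbke (−0.55 ± 0.12), Nfkbib (−0.47 ± 0.12) and Nfkbiz (−0.45 ± 0.13). Cflar had −0.31 ± 0.11, Rel −0.33 ± 0.12, Tnfaip3 −0.28 ± 0.11 and Traf1 −0.11 ± 0.11 in that fit, and none of these 4 passed. Without R replicate 2, Nfkbid and Relb passed, where 0.543% and 1.14% of all genes were higher and lower. The part of RNA quality in these values was not tested.

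The adenosine effect with inhibitor minus that without was more negative for 2 members and more positive for 0, where 3.14% and 0.909% of all 14965 tested genes were so called and 4.05% passed in either direction. The 2 were Relb (−0.82 ± 0.13, adjusted p = 0.00393) and Nfkb2 (−0.65 ± 0.16, adjusted p = 0.0453). In the table without inhibitor Relb held 124, 117 and 125 CPM in DNT and 121, 133 and 127 CPM in ADO, and Nfkb2 479, 470.4 and 485 and 479, 495 and 466 CPM, so for both genes the groups overlapped there and were apart under inhibitor. The differences for Cflar (0.52 ± 0.18), Rel (0.33 ± 0.14), Traf1 (−0.49 ± 0.15) and Tnfaip3 (−0.57 ± 0.18) did not pass. At an unadjusted p under 0.05 there were 16 members, and DESeq2 called 2 higher and 10 lower, where 17.4% of all genes were under that p and DESeq2 called 3.60% and 5.67% of them higher and lower. Without R replicate 3, 4 members were higher (Chuk, Birc3, Tnip3 and Cflar at 0.38 ± 0.092) and 13 lower, among them Tnfaip3 (−0.71 ± 0.089) and Traf1 (−0.58 ± 0.089), where 10.6% and 9.18% of all genes tested without it were so called. Nfkb2 no longer passed without any 1 of the DNT, ADO or RA libraries (adjusted p = 0.0943 to 0.133). Without R replicate 2 the counts were 2 higher and 3 lower, where 4.83% and 4.70% of all genes were, and without R replicate 1 they were 0 and 5, where 0.953% and 4.12% were. Both calls ended when counts were scaled to library size only (Relb adjusted p = 0.12, Nfkb2 0.254) and with the replicate block (0.0567 and 0.183).

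A further list of 28 genes held steps upstream of IKK. With ATPgs 3 rose and 12 fell, where 17.7% and 19.4% of all tested genes did, and with adenosine 10 rose and 9 fell, where 25.5% and 24.6% did. Malt1, which encodes the protease of the antigen receptor complex that feeds IKK, fell by 0.66 ± 0.040 with ATPgs and by 0.82 ± 0.023 with adenosine. Tnip2, a relative of Tnip1 and Tnip3, fell by 0.48 ± 0.056 and 0.76 ± 0.051 with the 2 ligands. Irak2, a kinase gene of the interleukin 1 receptor branch, rose by 0.96 ± 0.081 with ATPgs, and the kinase gene Prkcq fell by 0.36 ± 0.038 with adenosine. Median log2 fold changes of the list were −0.11 with ATPgs and 0.046 with adenosine, against −0.00062 and 0.0022 over all genes tested.

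A list of 28 transcriptional targets outside the 35 genes was read the same way. With ATPgs 6 rose and 13 fell, with adenosine 9 rose and 15 fell, and under inhibitor 0 rose and 6 fell, where over all tested genes 17.7% and 19.4%, 25.5% and 24.6%, and 0.287% and 0.855% rose and fell. The list medians were −0.36, −0.24 and −0.42. With ATPgs the smallest p values were those of Il2 (−2.73 ± 0.037), the signal transducer gene Stat5a (−0.93 ± 0.032) and the survival gene Bcl2l1 (−0.90 ± 0.038). With adenosine they were those of the cytokine gene Csf2 (−1.77 ± 0.026) and the chemokine genes Ccl4 (−1.06 ± 0.017) and Ccl3 (−0.95 ± 0.016). Under inhibitor Il2 (−2.70 ± 0.24), the lymphotoxin gene Lta (−1.61 ± 0.16) and the chemokine gene Cxcl10 (−1.78 ± 0.24) led. The median size of the change, whatever its sign, over the 35 genes and over these targets was 0.22 and 0.63 with ATPgs, 0.12 and 0.41 with adenosine, and 0.19 and 0.44 under inhibitor. This is a description of 2 chosen lists and was not tested.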

How the data were processed

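The authors deposited 3 tables of raw counts per Ensembl gene, 1 for each set of 6 libraries. Reads had been aligned with HISAT2 2.1.0 to GRCm38, per the submitters' processing notes, while the counting tool, its annotation and its strand setting are not given in these sources. Gene symbols, positions and exon lengths were taken from GENCODE M21, which matched 99.6% to 99.7% of the IDs. The test was edgeR's (version 4.0.16, R 4.3.3) two-sided quasi-likelihood F test with TMM factors, filterByExpr and robust dispersions. P-values were adjusted by Benjamini-Hochberg over every tested gene, at a threshold of 0.05. Each ligand was compared within its own table, and differences of effects were tested in fits of 12 libraries. The SE is the fold change divided by the square root of F. CPM used TMM factors, and RPKM divided them by merged exon length. The tests recovered most of the 2-fold changes put into simulated data.

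The 35 genes and the lists were chosen with earlier results of these data known. Genes given in every library were the 5 largest changes past the threshold with at least 5 CPM in a ligand comparison and the 4 largest in a difference test. Values for other genes in every library were chosen after they were seen. In the further lists the 3 smallest p values were named, other genes being chosen later. Alternatives were DESeq2 1.42.0, limma 3.58.1 voom with and without library weights, RLE factors, library size only, 2 other filters, all 18 libraries together, a replicate block and leaving out each library. Figures were drawn with matplotlib 3.10.9 under Python 3.11.15. No library was dropped from the results given first. For the upstream list the comparison under inhibitor and the difference tests are not reported here.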

Additional observations from a re-analysis of the deposited data

Results flagged for a closer look

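Members whose effects differed by a test of the difference itself deserve a second look. For the ATPgs effect minus the adenosine effect, on the log2 scale, positive differences were found in Birc2 (0.75), Bcl3 (0.65), Icam1 (0.55), Sqstm1 (0.51), Ripk1 (0.43), Birc3 (0.39), Tnip1 (0.32), Zc3h12a (0.32), Ripk2 (0.31), Tnfaip3 (0.23). Negative differences were found in Tnip3 (−0.88), Map3k14 (−0.50), Rela (−0.27), Traf1 (−0.23), Nfkb2 (−0.21), Nfkbib (−0.18). Of these, the calls of Nfkbib, Tnfaip3 and Zc3h12a ended without any 1 of 7, 10 and 7 of the 12 libraries. For the adenosine effect with inhibitor minus that without, negative differences were found in Nfkb2 (−0.65), Relb (−0.82), and both calls ended when counts were scaled to library size only or the replicate block was used. Each difference spans 2 tables, so table and treatment cannot be told apart. Groups of 3 libraries are too small for a test of single outlying values.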

How the results depend on the processing

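No member of the 35 changed direction while past the threshold under any alternative run. Across alternatives the adjusted p was 3.63e-42 to 0.000369 for Birc2 and 1.11e-23 to 0.00138 for Tnip3 with ATPgs, and 2.30e-150 to 0.00112 for Cflar and 5.64e-149 to 0.00091 for Traf1 with adenosine. For Nfkbid under inhibitor it was 2.10e-06 to 0.273, and for Relb and Nfkb2 in the inhibitor difference 1.61e-10 to 0.12 and 0.000788 to 0.254. Scaled to library size only, 14 members rose with adenosine, 0 fell under inhibitor and 0 were lower in the inhibitor difference, and the median over all genes under inhibitor moved from −0.036 to 0.093. With all 18 libraries in 1 fit, members rising and falling were 11 and 5 with ATPgs, 2 and 3 with adenosine and 0 and 11 under inhibitor, with 1 and 6 in the inhibitor difference and 2 and 1 in the ligand difference. Of all genes, that fit called 11.2% and 9.32% with ATPgs, 8.95% and 5.41% with adenosine and 5.51% and 5.56% under inhibitor. It called 2.43% and 3.84% in the inhibitor difference and 0.977% and 0.902% in the ligand difference. DESeq2 gave 3 falls under inhibitor, and 2 higher and 10 lower in the inhibitor difference, where the shares of all genes were 2.73%, and 3.60% and 5.67%. Falls under inhibitor numbered 2 with RLE factors and 2 with no filter, where 0.855% and 1.38% of all genes fell. At least 1 CPM in at least 3 libraries and limma-voom each gave 3 lower in the inhibitor difference, where 3.98% and 3.15% of all genes were. Library weights in limma-voom gave 1 rise and 15 falls under inhibitor, 6 higher and 13 lower in the inhibitor difference, and 15 higher in the ligand difference. Among all genes 10.3% and 11.9%, 11.8% and 11.2%, and 13.7% were so called. Leaving out 1 library, counts ran from 11 to 17 rises and 7 to 9 falls with ATPgs, 8 to 9 and 11 to 12 with adenosine, and 0 to 0 and 0 to 12 under inhibitor. They ran from 0 to 4 higher and 1 to 13 lower in the inhibitor difference, and from 8 to 16 and 5 to 6 in the ligand difference. Replicate numbers are shared across groups but nothing says that they pair libraries, and the deviations of same-numbered libraries correlated from −0.48 to 0.21. With the replicate block 13 members rose and 8 fell with ATPgs, 8 and 12 with adenosine, 0 and 0 under inhibitor, 0 and 0 in the inhibitor difference and 10 and 5 in the ligand difference. Over all genes the block gave 15.2% and 16.5%, 26.0% and 25.0%, and 0.225% and 0.816% in the ligand comparisons. For the inhibitor and ligand differences it gave 0.127% and 0.942%, and 6.76% and 7.27%. Library totals were alike in the 3 tables.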
